A study of Ovis aries with 30 samples.

Results

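The question taken up here is whether the liver of ram lambs and that of ewe lambs differed in how they stood after maternal exposure to biosolids. For each gene the exposure effect in rams (exposed minus control) had the exposure effect in ewes subtracted from it, a difference of differences called the interaction below. It used 29 of the 30 lambs sequenced and 13745 of the 31304 genes in the table, namely autosomal genes with at least 1 CPM (counts scaled to a common library total) in 14 of the 29 libraries. Values above 0 mean that exposed rams stood higher against control rams than exposed ewes did against control ewes, and values below 0 the reverse. All values are on the log2 scale, where 1 unit is a doubling.

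The samples were livers of first-generation sheep (Ovis aries) whose mothers grazed either pasture fertilised with biosolids or control pasture, from before conception through pregnancy. Biosolids are treated sewage sludge and carry low levels of many environmental chemicals at once. The 4 groups were control females (8 ewe lambs), control males (7 ram lambs), biosolids females (8) and biosolids males (7 labelled, 6 used). No genotype, breed, age or direct treatment of the lambs is given in the labels. Biosolids male 8778 was left out because 87.5% of its counts lay on ribosomal RNA.

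The liver is a sexually dimorphic organ. In many mammals, growth hormone pulses and sex steroids set different levels of hepatic enzymes, carriers and secreted plasma proteins in males and females. Hepatocytes also make the acute phase proteins, whose output is driven by interleukin 6 through STAT3 and by interleukin 1 through NF-kB and C/EBP factors. An interaction can therefore come about in several layouts: a sex difference present in controls and not in exposed lambs, one present in exposed lambs only, or opposite exposure effects of like size.

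Total counts lay between 24.1 and 51.9 M (mega-counts) over the 29 libraries, with 29.8 to 39.1 M in control ewes, 32.7 to 51.9 M in control rams, 24.1 to 42.8 M in exposed ewes and 32.2 to 43.3 M in exposed rams. Ribosomal RNA took 0.299% of the counts in control male 8364 and 2.43 to 7.69% in the other libraries. Of the 14 hepatocyte markers in the table, each had counts in all 29 libraries. Summed Y-chromosome levels lay between 292.6 and 443.6 CPM in rams and between 116.7 and 229.3 CPM in ewes. Control female 8263 stood apart from the other libraries, with a median Spearman correlation of 0.918, where the others reached at least 0.944. Control male 8408 held 303 CPM of the X-linked LOC101112291, against at most 2.09 CPM in the 12 other rams. In ewes this gene ran from 310 to 1027 CPM. The same library also had the highest summed Y level, 443.6 CPM, so its sex is uncertain. It was kept among the control rams and is called here the one labelled control male 8408. Without ewe 8263 alone 471 genes, and without 8408 alone 460 genes, had an unadjusted interaction p under 0.05, and 0 were called either way by edgeR's adjusted test.

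Across the 13745 genes, 0 (0%) had an interaction at an adjusted p under 0.05 (edgeR quasi-likelihood F test, Benjamini-Hochberg), and DESeq2 and limma voom likewise called 0. Without adjustment, 377 genes (2.74%) had a p under 0.05, fewer than the 687 that evenly spread p-values would give. Of these, 197 (1.43%) were above 0 and 180 (1.31%) below 0. The smallest adjusted p was 0.706 in edgeR and 0.0727 in DESeq2. Leaving out 1 lamb moved the count of genes at an unadjusted p under 0.05 to between 295 and 604, with the highest values without exposed male 8762 (604), control male 8364 (590) and control female 8245 (569).

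The precision bounds what could be seen. The median standard error of the interaction was 0.26, and the median half-width of its 95% confidence interval was 0.53 on the log2 scale. For 10198 genes (74.2%) the whole interval lay within 1 log2 unit of 0, and for 13237 (96.3%) within 2 units. The interaction itself lay between −0.42 and 0.55 for the middle 90% of genes bounded by the 5th and 95th percentiles, with a median of 0.02. Values above 0 were held by 54.1% of genes and values below 0 by 45.9%. Absence of a call thus leaves room for interactions of under 1 log2 unit in many genes, and for larger ones in the more variable genes.

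The effects that the interaction subtracts were themselves small beside the spread between lambs. In rams, edgeR called 0 genes (0%) at an adjusted p under 0.05, and 400 (2.91%) had an unadjusted p under 0.05. In ewes the corresponding numbers were 0 (0%) and 471 (3.43%). DESeq2 called 2 genes in rams and 0 in ewes, and limma voom 0 in either sex. The effect of exposure was below 0 for 48.7% of genes in rams and 53.3% in ewes, and above 0 for 51.3% and 46.7%. Opposite signs in the sexes occurred for 6874 genes, which is 50% of all. Control and exposed rams did not overlap for 13 genes (0.0946%), among them MUC1, SDS and ITIH4, and control and exposed ewes for 0 (0%). The ram groups held 7 and 6 lambs and the ewe groups 8 and 8, and smaller groups separate more readily by chance. These 2 counts therefore do not compare the sexes.

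**Figure D1:**
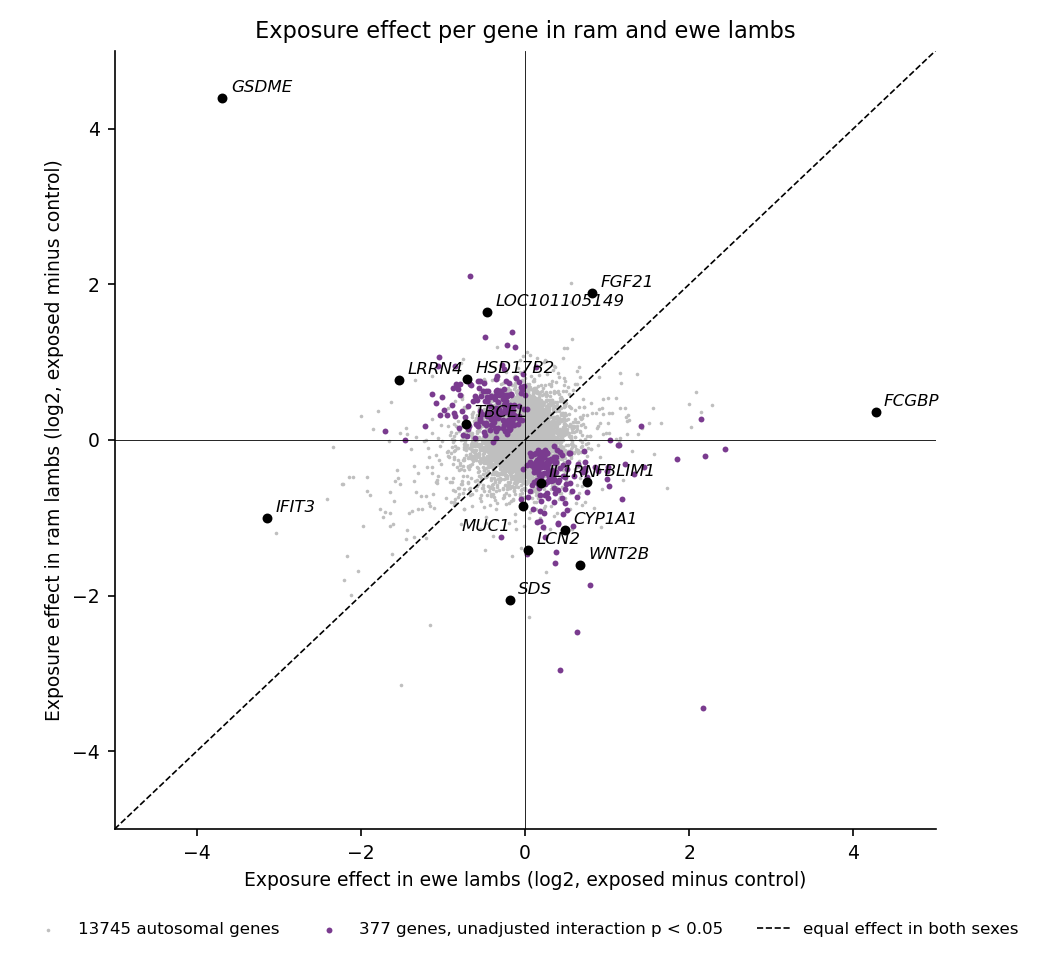
Each point is 1 of 13745 autosomal genes, with the log2 exposure effect in ewes on the x axis and that in rams on the y axis. The 377 genes at an unadjusted interaction p under 0.05 (purple) lie off the dashed line of equal effects, and of the genes named in black GSDME (8.08) and FCGBP (−3.91) lie farthest from it.

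The interaction equals the sex difference in exposed lambs minus that in controls, so both were read beside it. Between control rams and control ewes, edgeR called 0 genes (0%), the smallest adjusted p being 0.0553, while 3115 (22.7%) had an unadjusted p under 0.05. Between exposed rams and exposed ewes, edgeR called 0 (0%), the smallest adjusted p being 0.145, and 975 (7.09%) had an unadjusted p under 0.05. Other tools called more: DESeq2 62 and 8 genes, and limma voom 1828 and 74, in controls and exposed lambs. Without control male 8364, edgeR called 267 genes in controls. Whether these counts differ was not tested. The interaction tests, for each gene alone, whether its sex difference is the same in exposed lambs and controls. The group that stood farthest from the mean of the other 3 was control rams for 42.3% of all genes and for 41.9% of the 377 genes. It was control ewes for 21.9% and 21.2%, exposed ewes for 20% and 17.2%, and exposed rams for 15.8% and 19.6%.

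The 24 genes described next had the smallest interaction p in each direction, 12 above and 12 below 0, among genes with a symbol. None passed the test: the smallest edgeR adjusted p was 0.706, for GSDME, and all 12 genes below 0 had 0.9998. In all 24 the exposure effects in rams and ewes had opposite signs, which ranking by the difference itself favours. Control rams were the group farthest from the others in 9 of them, exposed rams in 6, control ewes in 5 and exposed ewes in 4. All 24 kept their sign in every alternative processing, which choosing them by p from mostly the same lambs also favours. Means are given ± SD over 8 control ewes, 7 control rams, 8 exposed ewes and 6 exposed rams, and interactions ± SE. Positions are in assembly ARS-UI_Ramb_v3.0. Because whole tissue was sequenced, fewer cells of a type and less RNA per cell cannot be told apart.

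**Figure D2:**
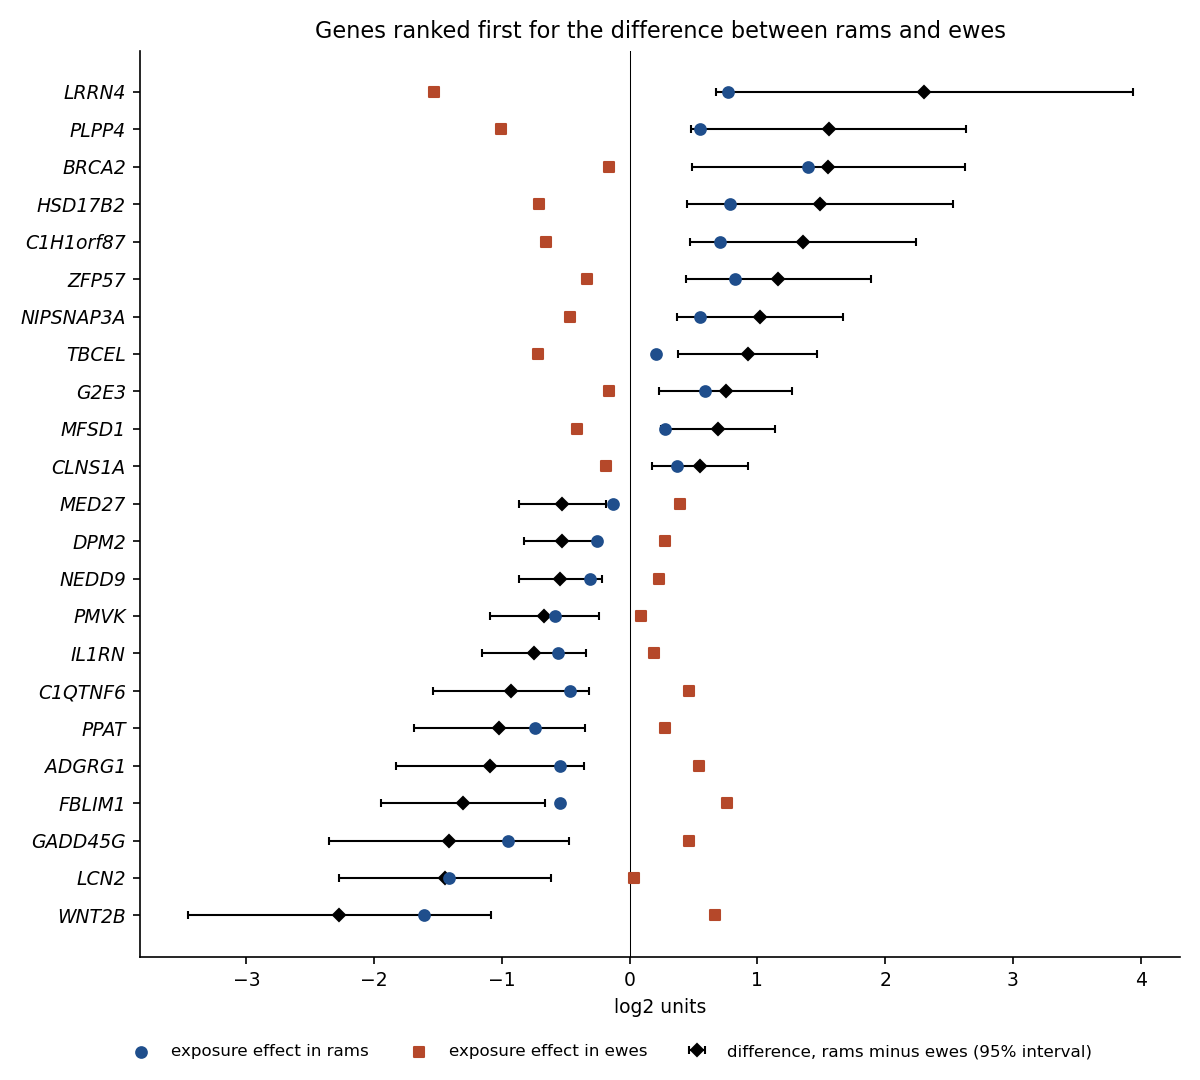
For 23 of the 24 genes, circles show the log2 exposure effect in rams, squares that in ewes and diamonds their difference with its 95% interval; GSDME is left out because its interval reaches beyond the axis. WNT2B has the lowest difference drawn (−2.27) and LRRN4 the highest (2.31), with the widest intervals.

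Below 0, the smallest p belonged to FBLIM1 (chromosome 12, 51089448 to 51114821), which encodes migfilin, an adaptor that joins filamin to integrin adhesions. FBLIM1 ran from 4.92 to 10.002 CPM in control rams (median 9.27) and from 4.31 to 7.29 CPM in exposed rams (median 5.48). In ewes the order was the other way, with 3.88 to 9.85 CPM in controls (median 5.51) and 5.70 to 16.9 CPM in exposed lambs (median 8.87). Exposed ewes 8649 and 8653 were the highest of all lambs, and the groups overlapped in both sexes. The exposure effect was −0.54 ± 0.23 in rams and 0.76 ± 0.21 in ewes, an interaction of −1.30 ± 0.31 (95% interval −1.94 to −0.66, unadjusted p of 0.000255). NEDD9 (chromosome 20, 44063953 to 44336286), a scaffold of adhesion signalling, had a like layout at smaller size, with means of 32.5 ± 4.20 and 26.2 ± 2.22 CPM in control and exposed rams and 27.5 ± 3.69 and 32.3 ± 5.81 CPM in control and exposed ewes. Its interaction was −0.54 ± 0.16. Among the 39 tested genes of filamin, integrin adhesion and actin regulation, 24 were below 0 (45.9% of all genes were), with a list median of −0.08. FBLIM1 and FLNC, 2 of the 39, were below 0 at an unadjusted p under 0.05, as were 1.31% of all genes. FLNC was near the expression minimum in most lambs, and highest in exposed ewes 8668 (5.77 CPM) and 8649 (4.18 CPM). The interaction of FLNC was −1.21, and −0.89 without ewe 8668. With 1 lamb left out its unadjusted p by edgeR reached up to 0.0709.

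WNT2B (chromosome 1, 89923116 to 89945269), a secreted Wnt ligand, was low in every exposed ram. It ran from 1.14 to 2.40 CPM in exposed rams (median 1.36), against 2.06 to 8.51 CPM in control rams (median 3.80), 0.841 to 5.89 CPM in control ewes (median 2.71) and 1.83 to 12.1 CPM in exposed ewes (median 4.24). Exposed male 8762 was the one lamb of its group inside the range of the control rams. The effect was −1.61 ± 0.44 in rams and 0.67 ± 0.38 in ewes, and the interaction −2.27 ± 0.58 (95% interval −3.46 to −1.09). The 32 tested Wnt ligands and zonation genes as a list had a median of −0.02, with 18 below and 14 above 0, and WNT2B was its single member at an unadjusted p under 0.05.

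ADGRG1 (chromosome 14, 25190985 to 25235533), an adhesion G protein-coupled receptor, and C1QTNF6 (chromosome 3, 181238079 to 181245313), a secreted protein of the C1q and tumour necrosis factor family, were likewise lower on average in exposed than control rams and higher in exposed than control ewes. ADGRG1 averaged 7.36 ± 2.09 and 5.04 ± 1.23 CPM in control and exposed rams, and 7.11 ± 2.28 and 10.4 ± 5.19 CPM in control and exposed ewes. Exposed ewes 8649 and 8668 held 20.4 and 16.2 CPM, above every other lamb, and without them the interaction of ADGRG1 was −0.67 in place of −1.09 ± 0.36. C1QTNF6 averaged 5.21 ± 1.33 and 3.77 ± 0.813 CPM in control and exposed rams against 2.99 ± 0.764 and 4.13 ± 1.49 CPM in control and exposed ewes, an interaction of −0.93 ± 0.30. Ewes 8649 and 8668 were also those with the most FCGBP, a mucus protein described further below.

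DPM2 (chromosome 3, 8284719 to 8289348) encodes a subunit of the enzyme that makes dolichol-phosphate mannose, the sugar donor for glycan and membrane anchor assembly. DPM2 was tightly distributed, from 18.2 to 26.2 CPM in control rams, 16.6 to 20.3 CPM in exposed rams, 14.8 to 22.4 CPM in control ewes and 18.0 to 25.997 CPM in exposed ewes. Medians of 22.01 and 17.997 CPM in rams and of 18.8 and 23.9 CPM in ewes ran in opposite directions. The interaction was −0.53 ± 0.14 (95% interval −0.83 to −0.24). DPAGT1, which starts the dolichol-linked glycan, had −0.51 ± 0.24. Of the 42 tested genes of dolichol-linked mannose and membrane anchor synthesis, 31 were below 0, against 45.9% of all genes, with a median of −0.13. These 2 of the 42 had an unadjusted p under 0.05 below 0, against 1.31% of all genes.

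MED27, a subunit of the Mediator complex, and PPAT, which catalyses the first committed step of purine synthesis, were also among the 12 genes below 0. MED27 was lowest in control ewes, at 6.42 ± 1.18 CPM, and between 7.70 ± 1.001 and 8.45 ± 1.10 CPM on average in the other groups, with an interaction of −0.53 ± 0.17. PPAT averaged 58.3 ± 21.6 CPM in control rams, where male 8364 reached 101 CPM, and 34.8 ± 7.99 CPM in exposed rams, with 36.5 ± 14.8 and 44.3 ± 11.7 CPM in control and exposed ewes. Its interaction was −1.02 ± 0.33, and −0.84 without male 8364.

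**Figure D3:**
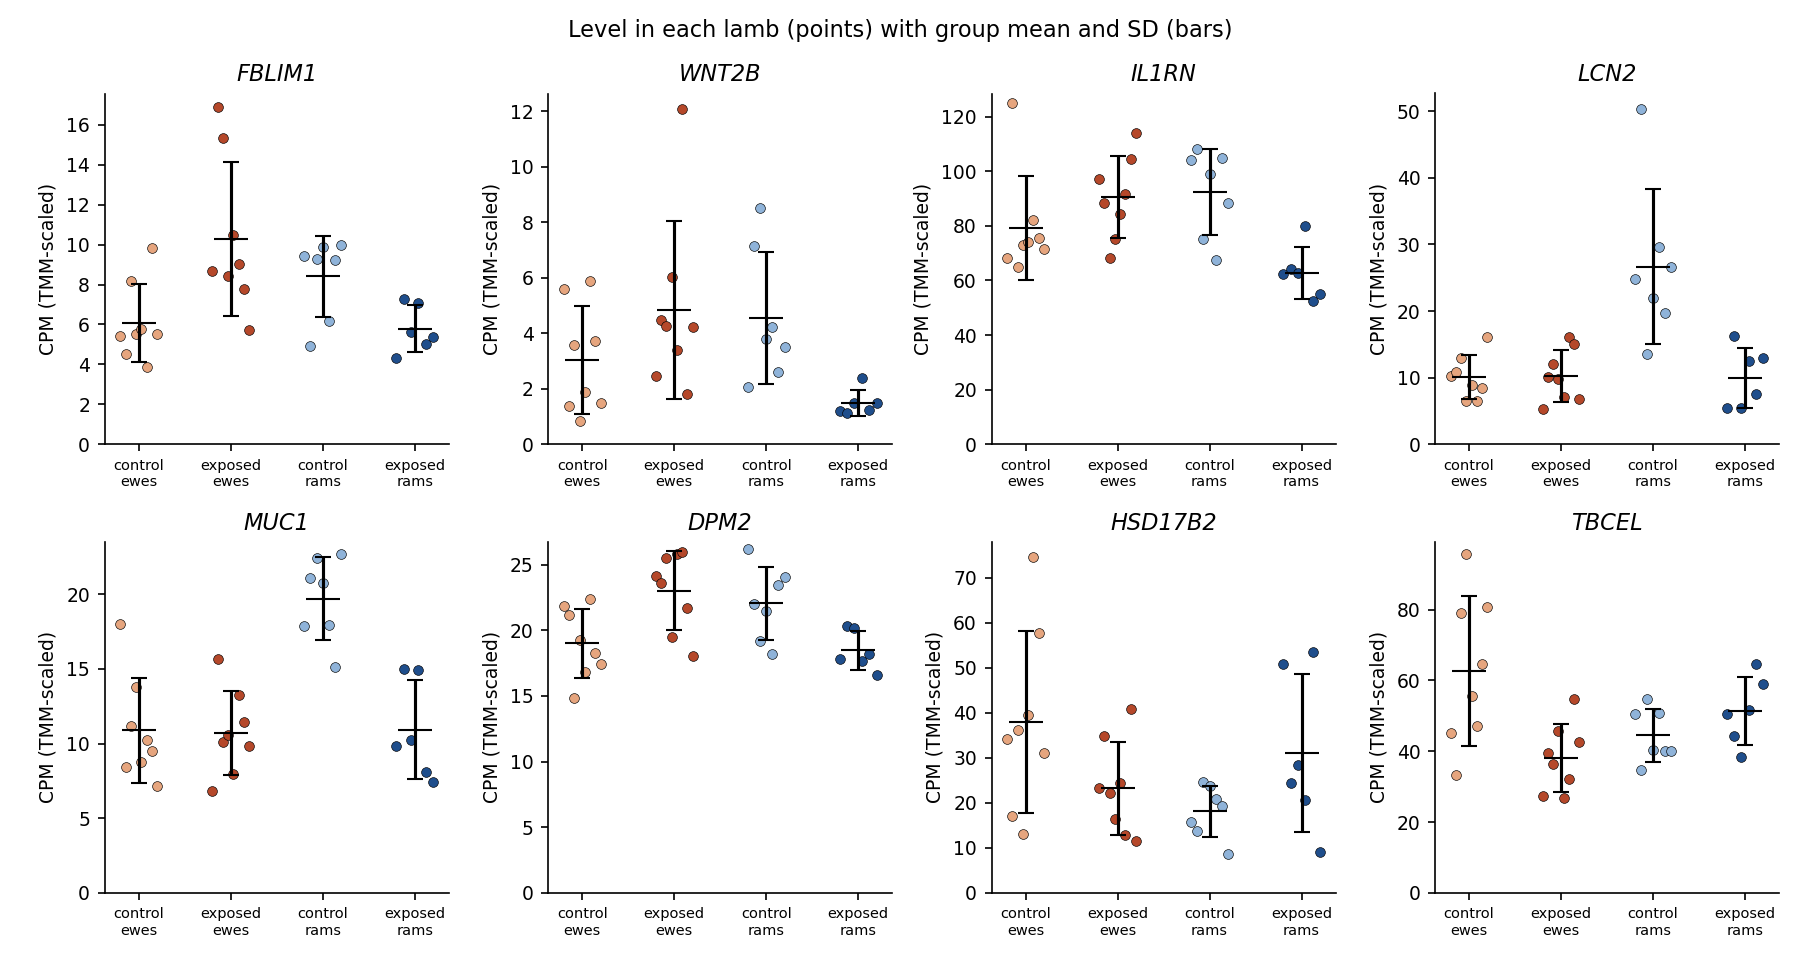
TMM-scaled CPM of 8 genes in each of the 29 lambs (points), by group, with the group mean (long bar) and SD (whiskers) on axes that start at 0. For LCN2 and MUC1 control rams have the highest mean, for FBLIM1 and DPM2 the exposed ewes and control rams are the higher groups, and for TBCEL and HSD17B2 control ewes have the highest mean.

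Acute phase proteins had the lowest median interaction of the 38 lists with at least 8 tested members. Of the 24 members tested (30 listed), 22 were below 0, where 45.9% of all genes were, and 6 had an unadjusted p under 0.05, all below 0, where 1.31% of all genes did. The members were IL1RN, LCN2, CRP, LBP, FGB and FGG, and edgeR called 0 of the 24 after adjustment. The list median was −0.55, made up of −0.43 in rams (23 of 24 below 0) and 0.10 in ewes (18 of 24 above 0). Read by sex, the same median was 0.55 for rams minus ewes in controls, with 16 of 24 above 0 at an unadjusted p under 0.05 (8.68% of all genes), and 0.06 in exposed lambs. The list's mean log2 CPM was 9.44 ± 0.29 in control rams, 8.97 ± 0.35 in exposed rams, 8.90 ± 0.29 in control ewes and 8.98 ± 0.24 in exposed ewes. Control male 8364, the library with the least ribosomal RNA, held the highest list mean of all lambs, 9.97. A link between the 2 was not tested. Members of a list share lambs and regulators, so the counts above describe the list and are no test of it.

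LCN2 (chromosome 3, 8108566 to 8128289), a carrier of bacterial siderophores secreted in inflammation, showed this layout most plainly. It ran from 13.6 to 50.4 CPM in control rams (median 24.8), with male 8364 at the top, and from 5.39 to 16.3 CPM in exposed rams (median 10.02). Control ewes ran from 6.43 to 16.1 CPM (median 9.54) and exposed ewes from 5.35 to 16.03 CPM (median 9.96). Exposed rams spanned nearly the same range as the ewes, and overlapped the control rams at its upper end. The effect was −1.41 ± 0.31 in rams and 0.03 ± 0.27 in ewes, an interaction of −1.45 ± 0.41 (95% interval −2.28 to −0.62), and −1.22 without male 8364.

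IL1RN (chromosome 3, 59836968 to 59859203), the secreted antagonist of the interleukin 1 receptor, ran from 67.4 to 108 CPM in control rams (median 99.2) and from 52.4 to 80.0 CPM in exposed rams (median 62.4). In ewes it ran from 64.8 to 125 CPM in controls (median 73.6), where female 8263 was highest, and from 68.1 to 114 CPM in exposed lambs (median 90.2). Exposed rams had the lowest median and the ranges overlapped in both sexes. The interaction was −0.75 ± 0.20 (95% interval −1.15 to −0.34).

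LBP (chromosome 13, 67203758 to 67240919), which hands bacterial lipopolysaccharide to its receptor, averaged 1391 ± 597 CPM in control rams and 676 ± 362 CPM in exposed rams. Control and exposed ewes averaged 649 ± 363 and 734 ± 329 CPM, so that control rams stood above the other 3 groups on average, with overlap. The interaction of LBP was −1.22 ± 0.49, and −0.996 without exposed ewe 8731, whose 1474 CPM was the highest of its group. C-reactive protein, CRP (chromosome 1, 110719265 to 110723234), averaged 4936 ± 2307 CPM in control rams, with 10016 CPM in male 8364 and a median of 4354 CPM, and 3468 ± 508 CPM in exposed rams. In ewes it averaged 3700.4 ± 419 CPM without exposure and 4169 ± 356 CPM with it. The interaction of CRP was −0.68 ± 0.25, and −0.41 without male 8364. The fibrinogen beta chain, FGB, held 14157 CPM in the same male, and its interaction of −0.57 ± 0.25 (unadjusted p of 0.0301) became −0.39 without that lamb (unadjusted p of 0.0833).

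ITIH4 and SDS were named here after their values were seen because control and exposed rams did not overlap. With all 29 lambs, their intervals of the interaction included 0. ITIH4 (chromosome 19, 48148993 to 48163993), an acute phase protease inhibitor chain, ran from 3771 to 5935 CPM in control rams and from 1541 to 3699 CPM in exposed rams. Control and exposed ewes ran from 1238 to 6820 and from 1354 to 3957 CPM, overlapping both ram groups. Its interaction was −0.61 ± 0.42. With 1 lamb left out it ran from −0.97 to −0.46, with unadjusted p by edgeR from 0.0086 to 0.271. SDS (chromosome 17, 61103746 to 61111724), serine dehydratase of amino acid breakdown, ran from 42.1 to 205 CPM in control rams and from 8.27 to 38.0 CPM in exposed rams, but from 15.9 to 586 CPM in control ewes and 27.8 to 287 CPM in exposed ewes. The 586 CPM was that of control ewe 8263. With that spread in ewes the interaction of SDS was −1.88 ± 0.98 (95% interval −3.89 to 0.14). With 1 lamb left out it ran from −2.69 to −1.60, with unadjusted p by edgeR from 0.0062 to 0.116.

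The regulators upstream of acute phase output were mixed. Among 35 tested genes of interleukin 1, interleukin 6 and NF-kB signalling, 17 were below and 18 above 0, the median was 0.01, and 4 had an unadjusted p under 0.05, where 2.74% of all genes did. CEBPB, a transcription factor of acute phase promoters, averaged 335 ± 76.0 and 252 ± 70.8 CPM in control and exposed rams, and 248 ± 68.2 and 323 ± 95.3 CPM in control and exposed ewes. Its interaction was −0.79 ± 0.28. STAT3, which carries the interleukin 6 signal, averaged 455 ± 65.6 and 338 ± 104 CPM in rams and 308 ± 107 and 389.6 ± 118 CPM in ewes, in the same order, an interaction of −0.77 ± 0.30. BCL3 was at −0.71 ± 0.32, and the pathogen receptor TLR2 was on the other side at 0.66 ± 0.29, with 0.44 when control ewe 8263 was left out. SOCS3, the feedback inhibitor of STAT3 signalling, averaged 84.7 ± 25.2 CPM in control rams and between 46.0 ± 32.9 and 49.5 ± 15.2 CPM in the other 3 groups, and its interaction was −0.98 ± 0.45.

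**Figure D4:**
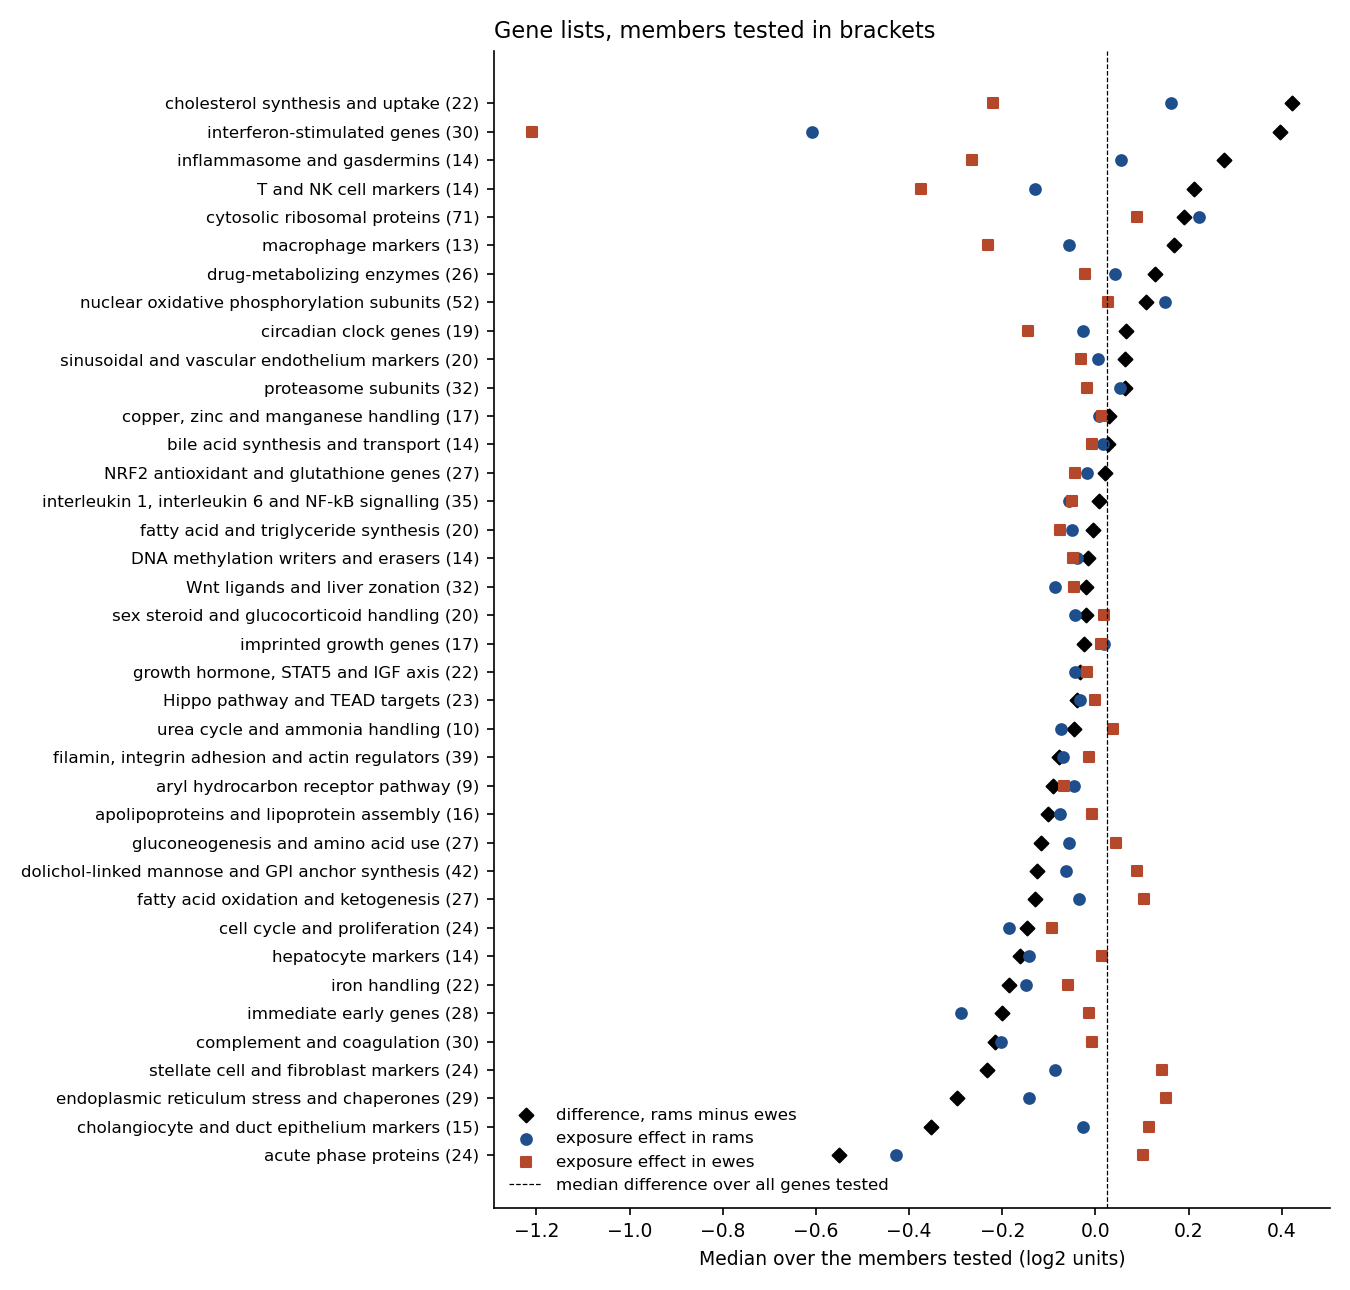
For each of the 38 lists with at least 8 tested members (number in brackets), the median over members of the interaction (diamonds), of the exposure effect in rams (circles) and of that in ewes (squares), in log2 units; the dashed line is the median interaction over all genes. Acute phase proteins lie lowest (−0.55) and cholesterol genes highest (0.42), and 24 of the 38 lists lie within 0.15 of 0.

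Other secreted plasma proteins and the protein-folding machinery leaned the same way by sign, with smaller medians. Complement and coagulation factors were below 0 in 28 of 30 tested members (45.9% of all genes) with a median of −0.21, and 0 had an unadjusted p under 0.05. C5 ran from 2152 to 3497 CPM in control rams and from 958 to 2337 CPM in exposed rams, and from 569 to 3229 and 987 to 2559 CPM in control and exposed ewes, an interaction of −0.64 ± 0.41. Under limma voom with sample weights the list's median was −0.03. The hepatocyte marker list, which holds FGB, was below 0 in 13 of 14 members, with a median of −0.16. Its summed level ran from 112700 to 146430 CPM in control rams, 84622 to 135230 CPM in exposed rams, 80874 to 140880 CPM in control ewes and 75969 to 138950 CPM in exposed ewes. Its part in the values of the acute phase and complement lists was not tested.

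Genes of endoplasmic reticulum stress and chaperones were below 0 in 28 of 29 tested members (45.9% of all genes), with a median of −0.30, from −0.14 in rams and 0.15 in ewes. A single member, against 1.31% of all genes, had an unadjusted p under 0.05 below 0: ERN1, the kinase and RNase that senses unfolded protein. ERN1 ran from 110.3 to 203 CPM in control rams, 78.5 to 159.5 CPM in exposed rams, 64.8 to 129 CPM in control ewes and 73.5 to 186 CPM in exposed ewes, overlapping between all groups. Its interaction was −0.81 ± 0.28. The list's mean log2 CPM was 6.597 ± 0.35 and 6.41 ± 0.30 in control and exposed rams and 6.37 ± 0.33 and 6.59 ± 0.26 in control and exposed ewes, so the group means were closer together than 1 SD. Over the alternatives its median ran from −0.48 to −0.24.

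Immediate early genes, switched on within minutes by growth factors and stress, were below 0 in 20 of 28 tested members (45.9% of all genes) with a median of −0.20. GADD45G, FOS and DUSP1, 3 of the 28, had an unadjusted p under 0.05 below 0, where 1.31% of all genes did. FOS (chromosome 7, 84571490 to 84574889), a subunit of the AP-1 factor, ran from 4.58 to 37.8 CPM in control rams (median 9.42), from 3.52 to 10.4 CPM in exposed rams (median 5.72), from 4.31 to 11.2 CPM in control ewes (median 7.86) and from 4.45 to 25.1 CPM in exposed ewes (median 8.18). Control rams 8364, 8351 and 8425 and exposed ewe 8733 were the lambs above 25 CPM, and the groups overlapped. The interaction of FOS was −1.81 ± 0.64. GADD45G, a stress-inducible growth arrest protein, averaged 10.2 ± 4.79 CPM in control rams and 5.26 ± 1.25 CPM in exposed rams, against 5.33 ± 4.002 and 7.35 ± 1.98 CPM in control and exposed ewes. Its interaction was −1.41 ± 0.46. DUSP1, a phosphatase that shuts off MAP kinases, was at −0.94 ± 0.34.

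**Figure D5:**
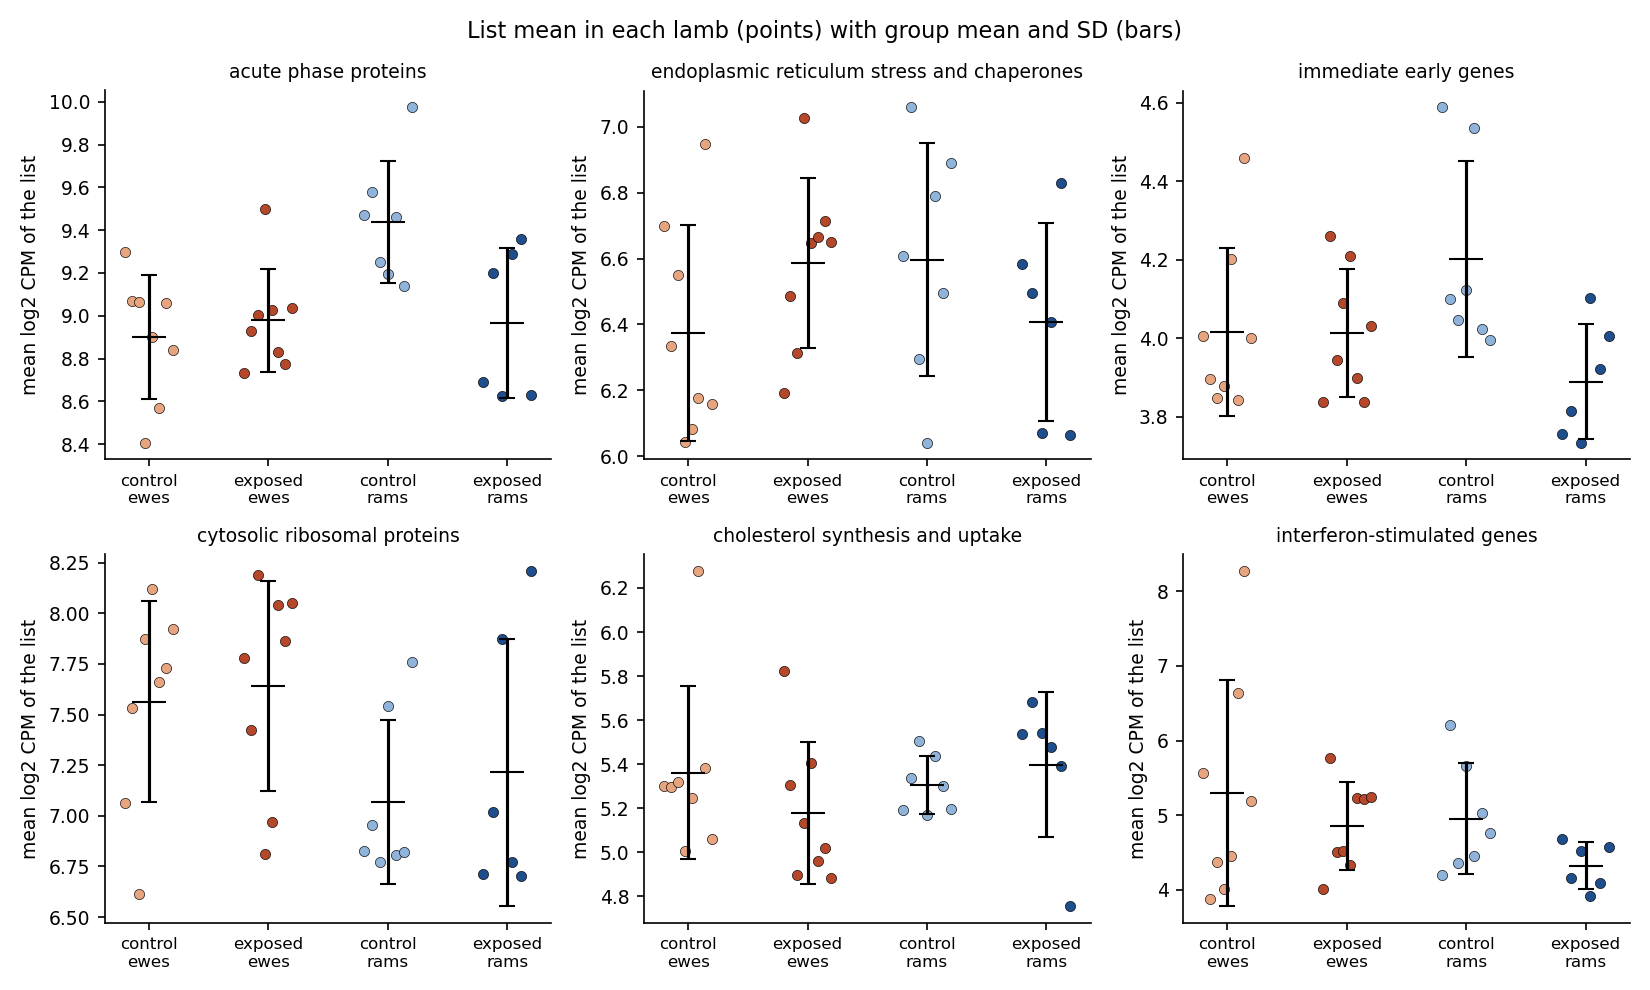
Mean log2 CPM over the tested members of 6 lists in each lamb (points), with the group mean and SD (bars); the y axes do not start at 0. Control rams have the highest mean for acute phase proteins (9.44), control ewe 8263 stands alone for interferon-stimulated genes (8.28) and control ewe 8378 for cholesterol genes (6.28).

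Cholesterol synthesis and uptake had the highest list median, 0.42, from 0.16 in rams and −0.22 in ewes. Of 22 tested members, 17 were above 0, where 54.1% of all genes were. Of these 22, 4 had an unadjusted p under 0.05 above 0, among them IDI1, SQLE and FDPS, where 1.43% of all genes did, and PMVK had one below 0. SQLE (chromosome 9, 28169561 to 28191274), the squalene epoxidase, ran from 0.810 to 4.97 CPM in control rams (median 2.87), from 1.47 to 11.6 CPM in exposed rams (median 5.64), from 2.82 to 28.8 CPM in control ewes (median 4.09) and from 2.02 to 13.3 CPM in exposed ewes (median 3.40). Control ewe 8378 held the 28.8 CPM, and also 18.1 CPM of the farnesyl diphosphate synthase FDPS, whose next highest value was 5.31 CPM. Without ewe 8378 the interaction of SQLE was 1.21 in place of 1.80 ± 0.76, that of FDPS 0.50 in place of 1.16 ± 0.50, and the list's median 0.18. The unadjusted p was then 0.0842 for SQLE and 0.131 for FDPS. The sterol regulator SREBF2 was at 0.52 ± 0.31.

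PMVK (chromosome 1, 105089641 to 105155088), phosphomevalonate kinase, went against its list. It ran from 147 to 215 CPM in control rams and from 89.9 to 147 CPM in exposed rams, which met at their edges, and averaged 129 ± 32.7 and 137 ± 22.2 CPM in control and exposed ewes. The effect was −0.58 ± 0.16 in rams and 0.09 ± 0.14 in ewes, and the interaction −0.67 ± 0.21 (95% interval −1.09 to −0.24). SREBF1, which drives fatty acid synthesis, was at 0.19 ± 0.39, and the 20 genes of fatty acid and triglyceride synthesis split evenly, 10 on each side of 0.

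Above 0, the gene with the smallest interaction p among all genes, LOC101105149 (chromosome 3, 95632443 to 95633978), has no symbol and was named after its values were seen. It ran from 0.585 to 1.53 CPM in control rams, from 1.36 to 6.86 CPM in exposed rams, from 0.994 to 3.36 CPM in control ewes and from 0.761 to 1.74 CPM in exposed ewes. Exposed males 8735 and 8762 were the highest lambs. Its interaction was 2.11 ± 0.46 (95% interval 1.18 to 3.04), with an adjusted p of 0.706 by edgeR and 0.0727 by DESeq2.

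GSDME (chromosome 4, 72643254 to 72790831), gasdermin E, a pore-forming protein of inflammatory cell death, had the largest interaction of the ranked genes, 8.08 ± 1.78, and it came from 2 lambs. Control ewe 8360 held 134 CPM and exposed male 8735 139.5 CPM, while the other 27 lambs lay between 0.549 and 2.55 CPM. Group medians were 1.11 CPM in control rams, 1.33 CPM in exposed rams, 1.64 CPM in control ewes and 1.34 CPM in exposed ewes. Without both lambs the interaction was 0.30, with an unadjusted p of 0.472, and without male 8735 alone it was 3.87.

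TBCEL (chromosome 15, 31369374 to 31440566), a relative of tubulin cofactor E that destabilises tubulin, ran from 33.4 to 95.7 CPM in control ewes (median 60.1) and from 26.8 to 54.8 CPM in exposed ewes (median 38.0). In rams it ran from 34.8 to 54.7 CPM in controls (median 40.5) and from 38.3 to 64.6 CPM in exposed lambs (median 51.0). Control ewes 8313, 8378 and 8269 were the lambs above 70 CPM, and the groups overlapped. The interaction was 0.92 ± 0.27, from 0.21 ± 0.20 in rams and −0.72 ± 0.18 in ewes.

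HSD17B2 (chromosome 14, 8096021 to 8195156) oxidises estradiol and testosterone to their less active 17-keto forms. It ran from 13.02 to 74.7 CPM in control ewes (median 35.1), from 11.5 to 40.9 CPM in exposed ewes (median 22.6), from 8.70 to 24.6 CPM in control rams (median 19.3) and from 9.14 to 53.5 CPM in exposed rams (median 26.4). Control ewes 8353 and 8360 and exposed rams 8764 and 8690 were the lambs above 50 CPM. The interaction was 1.49 ± 0.51 (95% interval 0.45 to 2.53), from 0.79 ± 0.38 in rams and −0.71 ± 0.34 in ewes. HSD17B2 was the one member at an unadjusted p under 0.05 among 20 tested genes of sex steroid and glucocorticoid handling, which split 11 below and 9 above 0. The estrogen receptor ESR1 averaged 169.5 ± 29.7 and 147 ± 41.9 CPM in control and exposed rams and 116 ± 31.0 and 107 ± 33.7 CPM in control and exposed ewes, an interaction of −0.09 ± 0.30.

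ZFP57 (chromosome 20, 27954095 to 27978882), a zinc finger protein that protects methylation at imprinted loci, was lowest in control rams. It ran from 0.453 to 1.05 CPM there, from 0.876 to 2.28 CPM in exposed rams, from 0.801 to 2.39 CPM in control ewes and from 0.701 to 1.52 CPM in exposed ewes, near the low end of what was tested. Its interaction was 1.16 ± 0.35. The 17 tested imprinted growth genes had a median of −0.02 and the 14 DNA methylation writers and erasers, of which ZFP57 is listed as one, −0.02.

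CLNS1A, a partner of the arginine methylation complex, and G2E3, a ubiquitin ligase, also had control rams as the lowest group. CLNS1A ran from 11.7 to 16.003 CPM in control rams and averaged between 16.4 ± 2.29 and 18.6 ± 4.01 CPM in the other 3 groups, an interaction of 0.55 ± 0.18. G2E3 averaged 1.96 ± 0.424 CPM in control rams and between 2.61 ± 0.468 and 2.95 ± 0.543 CPM elsewhere, an interaction of 0.75 ± 0.26. MFSD1, a lysosomal transporter, and NIPSNAP3A averaged lower in exposed than in control ewes and higher in exposed than in control rams, with interactions of 0.69 ± 0.22 and 1.02 ± 0.32. PLPP4, a phospholipid phosphatase, was at 1.56 ± 0.53 and C1H1orf87 at 1.36 ± 0.43.

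BRCA2 and LRRN4 owed much of their place to exposed male 8770. BRCA2, a DNA repair gene, held 13.1 CPM in that lamb and 1.36 to 3.17 CPM in the other exposed rams, and its interaction of 1.56 ± 0.52 became 0.67 without it (unadjusted p of 0.072). LRRN4, a marker of mesothelium, held 9.89 CPM in the same lamb, and 17.8 and 15.1 CPM in control ewes 8322 and 8269, where the group's median was 2.55 CPM. Its interaction was 2.31 ± 0.80, and 1.49 without male 8770 (unadjusted p of 0.0527). GPM6A, on the same list, was at 1.27 ± 0.61, and 0.82 without control ewe 8322 (unadjusted p of 0.141). Of the 10 mesothelium markers listed, 3 were tested, with interactions above 0 for these 2 and below 0 for 1. The summed level of all 10 ran from 15.7 to 60.04 CPM in control ewes, 17.2 to 28.4 CPM in control rams, 15.1 to 34.1 CPM in exposed ewes and 18.9 to 32.0 CPM in exposed rams. MSLN and WT1 were at 0 in 2 and 11 libraries.

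Genes of mucous and duct epithelium took their interaction values largely from 2 exposed ewes. FCGBP (chromosome 14, 48813856 to 48854330), a binding partner of mucins, held 331 CPM in exposed ewe 8649 and 91.6 CPM in exposed ewe 8668, and 2.45 to 6.87 CPM in the other 6 of that group. Control ewes ran from 1.02 to 3.97 CPM, control rams from 2.29 to 18.2 CPM and exposed rams from 1.53 to 16.7 CPM. The interaction of FCGBP was −3.91 ± 1.32, −2.15 without ewe 8649, and −0.12 without both ewes. All 7 mucous markers tested (15 in the table, 18 listed) were below 0, with a median of −0.59, or −0.27 without both ewes. The summed level of the 15 in the table ran from 274 to 1989 CPM in exposed ewes, 360.0 to 575 CPM in control ewes, 419 to 664 CPM in control rams and 282 to 619.8 CPM in exposed rams. The mucous markers TFF1 and AGR3 were at 0 in 22 and 12 libraries.

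MUC1 (chromosome 1, 105380397 to 105385021), a membrane mucin of duct epithelium, had another layout. It ran from 15.1 to 22.7 CPM in control rams (median 20.7) and from 7.45 to 15.01 CPM in exposed rams (median 10.04), without overlap. Control and exposed ewes had medians of 9.88 and 10.3 CPM. The interaction was −0.83 ± 0.27 (95% interval −1.39 to −0.27), and −0.72 without ewes 8649 and 8668. The 15 tested cholangiocyte and duct markers were below 0 in 12 members with a median of −0.35, which was −0.02 without both ewes.

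Collagen genes shared these ewes. COL1A1 (chromosome 11, 36191118 to 36208942), a chain of fibrillar collagen, ran from 29.1 to 223 CPM in exposed ewes, with ewes 8649 and 8668 highest, and from 29.1 to 67.0 CPM in control ewes. In control rams it averaged 109 ± 31.8 CPM and in exposed rams 82.8 ± 33.2 CPM. Its interaction was −1.13 ± 0.48, −0.72 without ewe 8649 and −0.51 without both ewes (unadjusted p of 0.195). COL1A2 and FBLN1 went from −1.01 and −1.24 to −0.55 and −0.41 without both. Of 24 stellate cell and fibroblast markers, 18 were below 0, with a median of −0.23, and 13 were below 0 without ewes 8649 and 8668, with a median of −0.15. Their summed level ran from 1209.5 to 1474 CPM in control rams, 894.5 to 1512 CPM in exposed rams, 669 to 1195 CPM in control ewes and 683 to 1331 CPM in exposed ewes. Their part in the values of FBLIM1, ADGRG1 and C1QTNF6 was not tested, but without ewes 8649 and 8668 those interactions were −1.19, −0.67 and −0.77.

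Interferon-stimulated genes had exposure effects below 0 in all 30 tested members in rams and in ewes, where 48.7% and 53.3% of all genes were below 0. The list's median was −0.61 in rams and −1.21 in ewes, and its median interaction 0.40, with 26 of 30 above 0. The ewe value turned on control ewe 8263: without that lamb it was −0.16, with 25 of 30 below 0, and in rams −0.60. Among control rams, 8428 and 8408 had the highest list means, 6.20 and 5.66 on the log2 scale. The median of that group was 4.76, and exposed rams ran from 3.91 to 4.68. Control ewe 8263 held 594 CPM of IFIT3, an antiviral effector, where the other control ewes ran from 3.65 to 56.9 CPM. Without ewe 8263 the list's median interaction was −0.39, with 28 of 30 members below 0, and that of IFIT3 was −0.53 in place of 2.14 ± 1.27. By limma voom the list's median interaction was −0.37. The 14 tested T and NK cell markers had a median of 0.21, and −0.06 without the same ewe. The summed level of the 16 in the table ran from 45.7 to 200.03 CPM in control ewes, with ewe 8263 the highest by list mean, and from 37.5 to 97.1 CPM over the other 3 groups.

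Ribosomal protein genes were above 0 in 62 of 71 tested members, with a median of 0.19, and 0 had an unadjusted p under 0.05. The median was −0.10 without exposed male 8735, whose list mean of 8.21 on the log2 scale was the highest of the 29 lambs, −0.11 with 2 surrogate variables in the fit and −0.07 by limma voom. Nuclear subunits of oxidative phosphorylation were above 0 in 40 of 52 members, with a median of 0.11. Without male 8735 the median was 0.018, with 23 of 51 members below 0.

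Genes tied to the exposure or to sex by their known biology were mostly unremarkable. CYP1A1 (chromosome 18, 31609570 to 31615427), the enzyme induced through the aryl hydrocarbon receptor by many pollutants, ran from 132 to 954 CPM in control rams (median 321) and from 108 to 251 CPM in exposed rams (median 174). In ewes it ran from 80.4 to 546 CPM in controls (median 237) and from 84.4 to 735 CPM in exposed lambs (median 358). Exposed rams were the narrowest and lowest group, within the range of the others. The interaction of CYP1A1 was −1.64 ± 0.60 (95% interval −2.88 to −0.41, unadjusted p of 0.0107), and −1.27 without control male 8351. The other 8 of 9 tested genes of that pathway had an unadjusted p over 0.05, the receptor AHR at −0.12 ± 0.29, and 26 drug-metabolizing enzymes had a median of 0.13 with 0 at an unadjusted p under 0.05.

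IGF1, the growth factor that liver secretes under growth hormone, averaged 266 ± 47.2 and 299 ± 148 CPM in control and exposed rams and 145 ± 51.5 and 133 ± 71.9 CPM in control and exposed ewes, an interaction of 0.29 ± 0.43, and 0.048 without exposed male 8762. The 22 tested genes of the growth hormone axis had a median of −0.03 and SOCS3 as their one member at an unadjusted p under 0.05. FGF21, a fasting-responsive hormone, was at 1.07 ± 1.11, and −0.29 without the same male, who held 74.6 CPM. TEAD4, which binds DNA for the Hippo pathway, averaged lower in exposed lambs of both sexes, −0.63 ± 0.17 in rams and −0.27 ± 0.15 in ewes, and its interaction was −0.36 ± 0.23 (95% interval −0.83 to 0.10).

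Most other lists had medians between −0.19 and 0.17. Inflammasome and gasdermin genes (14 tested), GSDME among them, had a median of 0.28. Gluconeogenesis and amino acid use (27 tested) had a median of −0.12, with the serine dehydratase-like SDSL at −0.60 ± 0.27, and fatty acid oxidation and ketogenesis (27 tested) −0.13, with the lipase inhibitor ANGPTL4 at −0.82 ± 0.33. Lipoprotein assembly (16 tested) had −0.10. Urea cycle (10 tested), bile acid (14), antioxidant (27) and Hippo genes (23) had medians of −0.04, 0.03, 0.02 and −0.04, and circadian clock (19), cell cycle (24) and iron handling genes (22) 0.07, −0.15 and −0.19. Endothelial markers (20 tested) had 0.06 and macrophage markers (13) 0.17, or −0.050 over the 12 tested without control ewe 8263. CD68 had no counts in any of the 29 libraries. LYZ, lysozyme, had an interaction of 2.12 ± 0.82, with 12.8 CPM in ewe 8263 and under 3 CPM in every other lamb, and it was near the expression minimum, which it did not pass without that ewe or without several other lambs.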

How the data were processed

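Per the labels' protocols, column-purified RNA of frozen liver went into TruSeq libraries sequenced on a NovaSeq S4. The submitters' processing notes name STAR and featureCounts 1.5.0-p3 beside Trimmomatic for trimming and FastQC with MultiQC for quality. The unit is whole-number counts per gene as deposited, not normalized, with no column lacking a lamb. Genome build, strand setting, litters and batches are not given in the sources used here. Antisense and overlapping genes are therefore uncertain. Each lamb was taken as independent, and a p-value sets a group difference against the spread among these animals. It may be too small where lambs share a litter or batch.

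Of 31304 genes, 7 broken over 25 lines were joined, and 28862 matched RefSeq by symbol, with identical positions in all 28855 compared, so positions are given in its assembly, ARS-UI_Ramb_v3.0. Autosomal genes (29645 on 26 autosomes) with at least 1 CPM in 14 of 29 libraries were kept. Library sizes were column totals over all genes with TMM scaling. A mean for each of 4 groups was fitted across all genes with edgeR 4.0.16 in R 4.3.3 (robust quasi-likelihood, 25 residual degrees of freedom, biological coefficient of variation 31.1%). The fit was checked on simulated counts with the same dispersion for every gene and no variation shared within a lamb. That check does not cover outlying lambs or genes that vary together. Calls used a Benjamini-Hochberg adjusted p under 0.05. SE is the log2 value divided by the square root of F, and CPM is TMM-scaled.

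Named genes were the 12 smallest interaction p in each direction with a symbol, at most 5 members at p under 0.05 (otherwise 2) of each list described, and a fixed set (LCN2, MUC1, IL1RN, FBLIM1, TEAD4, CYP1A1, FGF21, IGF1, LBP, FOS, SREBF1, ESR1). LOC101105149, SDS, ITIH4, FGG, AHR and SREBF2 were added after their values were seen. The comparison, the 43 lists and the fixed set were chosen with earlier results of these data known. Alternatives were RLE scaling, filterByExpr, no filter, DESeq2 1.42.0, limma 3.58.1 voom with sample weights, all 30 libraries, sex-linked and unplaced genes added, ribosomal RNA left out, 2 surrogate variables (sva 3.50.0), an adjusted p of 0.1 and each lamb left out. After the data were seen, 3 settings without a pair of lambs were added: 8263 with 8408, 8360 with 8735, and 8649 with 8668. The smallest of 406 chi-square values per degree of freedom between libraries was 56.6, and 0 pairs were identical. Some genes are not reported here.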

Additional observations from a re-analysis of the deposited data

Results flagged for a closer look

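Values that stood apart from the rest of their group by Dixon's criterion were looked for in 47 genes and 4 groups. Of 188 groups of values, 36 (19.1%) held one, where chance gives about 1 in 20. Genes vary together within a lamb, so these are not independent. Exposed ewe 8731 gave 5 of them and exposed male 8762 gave 4.

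In control ewes, these were GSDME at 134 CPM in lamb 8360, IL1RN at 125, GADD45G at 14.7 and IFIT3 at 594 CPM in lamb 8263, PLPP4 at 0.357 CPM in lamb 8322, FGF21 at 23.1 CPM in lamb 8353, SREBF1 at 97.3 and ITIH4 at 6820 CPM in lamb 8245, and FDPS at 18.1 CPM in lamb 8378. In control rams, they were MFSD1 at 34.7 CPM in lamb 8394, CYP1A1 at 954 CPM in lamb 8351, CRP at 10016, FGB at 14157 and FCGBP at 18.2 CPM in lamb 8364, STAT3 at 318 CPM in lamb 8408 and IFIT3 at 38.7 CPM in lamb 8428.

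In exposed ewes, they were WNT2B at 12.1, MED27 at 11.005, LBP at 1474, FGB at 10529 and STAT3 at 636 CPM in lamb 8731. NIPSNAP3A stood at 3.29 CPM in lamb 8647, LRRN4 at 5.26 CPM in lamb 8714, FOS at 25.1 CPM in lamb 8733 and IFIT3 at 22.3 CPM in lamb 8775. SQLE was at 13.3 and FDPS at 5.31 CPM in lamb 8668, and FCGBP at 331 and COL1A1 at 223 CPM in lamb 8649. In exposed rams, they were GSDME at 139.5 CPM in lamb 8735, WNT2B at 2.40, MED27 at 9.60, FGF21 at 74.6 and CEBPB at 391 CPM in lamb 8762, and BRCA2 at 13.1 and LRRN4 at 9.89 CPM in lamb 8770.

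Outside the genes and libraries tested, biosolids male 8778 had 87.5% of its counts on ribosomal RNA, against at most 7.69% in the others. The library labelled control male 8408 held 303 CPM of the X-linked LOC101112291, against at most 2.09 CPM in the 12 other rams. In ewes it ran from 310 to 1027 CPM.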

How the results depend on the processing

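Under each of the 42 alternatives, 0 genes had an interaction at the adjusted threshold. The lowest adjusted p by edgeR's quasi-likelihood test was 0.0627, for IL1RN, without lambs 8263 and 8408 together. By DESeq2 on the 29 libraries the lowest was 0.0727, for LOC101105149. Both lie under 0.1, a threshold that was applied to the chosen fit alone. The number of genes at an unadjusted p under 0.05 was 377 in the chosen fit, 519 with filterByExpr, 1150 with no filter, 644 by limma voom, 626 with 2 surrogate variables, 574 without 8263 and 8408, 295 without 8360 and 8735, and 295 to 604 with 1 lamb left out. Exposure in rams gave 2 genes by DESeq2. Sex in controls gave 0 genes in the chosen fit, 62 by DESeq2, 1828 by limma voom, 4 with sex-linked and unplaced genes added, 1 at an adjusted p of 0.1, and 0 to 267 with 1 lamb left out (267 without control male 8364). Sex in exposed lambs gave 8 by DESeq2, 74 by limma voom, 3 with sex-linked and unplaced genes added, 1 without lambs 8263 and 8408, 1 without lambs 8360 and 8735, and 0 to 1 with 1 lamb left out. Of 3981 gene values under alternatives, 16 changed sign, in 8 genes, none of them among the 24 ranked. By limma voom these were FGF21 (−0.29), ESR1 (0.076), IFIT3 (−0.52), IFI44L (−0.29) and CD8B (−0.034). Without lambs 8263 and 8408 they were IFIT3 (−0.55) and IFI44L (−0.034), and without 8360 and 8735 ESR1 (0.074) and RPL21 (−0.087). With 1 lamb left out, FGF21 ran from −0.29 to 1.44 (lowest without 8762), SREBF1 from −0.013 to 0.34 and NNAT from −0.12 to 1.17 (8770), ESR1 from −0.20 to 0.036 (highest without 8735), and IFIT3 from −0.53 to 2.88, IFI44L from −0.032 to 2.09 and CD8B from −0.067 to 0.72 (8263). For the calls and signs that differ between tools the cause was not tested. No paired analysis was possible because the groups share no replicate numbers. The spread between 6 to 8 lambs a group, more than counting depth, limits precision in genes well above 1 CPM.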
